A study of Mus musculus with 8 samples.

Results

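The regions described here are 694 ATAC-seq peaks at which fenoterol alone gave more signal than no stimulation in bone marrow-derived macrophages of both mice studied. They were chosen by the measured values themselves: the deposited RPKM (reads scaled to peak length and library size) plus 4 had to be at least 1.5-fold higher (log2 change of 0.585) with fenoterol in mouse 1 and again in mouse 2. Their mean over the 8 libraries had to exceed 9.71 RPKM. The table holds 74207 peaks, of which 66772 passed the same filter on the mean and were tested. All macrophages came from wild-type C57Bl/6 mice and were grown from bone marrow in CMG medium with serum, and the ages of the animals are not stated in the sources used here. Cells of each of the 2 mice were left unstimulated, given 1 µM fenoterol for 15 min, given 100 ng/mL LPS for 1 h, or given fenoterol for 15 min and then LPS for 1 h. This makes 4 groups with 1 library per mouse. Cells given both agents were collected later after the agonist than cells given fenoterol alone. Accessibility at macrophage marker genes was not examined here, because a gene annotation on build mm9 was not used.

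Fenoterol activates the β2 adrenergic receptor, which couples through the Gs protein to adenylyl cyclase and raises cyclic AMP. Cyclic AMP activates protein kinase A, which phosphorylates CREB, a transcription factor that sits at promoters and enhancers of rapidly induced genes. LPS, a component of bacterial outer membranes, acts through Toll-like receptor 4 and activates NF-kB, AP-1 and interferon-regulatory factors. In ATAC-seq, the Tn5 transposase inserts adapters where DNA is not covered by nucleosomes, so a peak marks a promoter, an enhancer or another open site. In such bulk libraries, more cells with an open site and more openness per cell cannot be told apart.

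The unstimulated library of mouse 1 was shallow, and it is part of the rule. Reads in peaks numbered 1426873 in it and 3164446 to 4040292 in the other 7 libraries. The median raised peak held 2 reads there, with an exact 95% Poisson interval of 0.242 to 7.22, which covers counting error only. In the unstimulated library of mouse 2 it held 10 reads (4.795 to 18.4), and in the other 6 libraries 13 to 19 reads. Of the 694 peaks, 230 (33.1%) stood at 1 read in the shallow library, where 2127 of all tested peaks (3.19%) did. A level of 1 read is the floor of the table and need not stand for a read. The raised peaks thus had their least precise value in a library that chose them.

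The mice agreed on a minority of peaks at this threshold. In mouse 1, 8978 tested peaks (13.4%) were at least 1.5-fold higher with fenoterol, and in mouse 2, 3002 (4.50%). Of the peaks higher in mouse 1, 7.73% were also that much higher in mouse 2, and of those higher in mouse 2, 23.1% were so in mouse 1. The mirrored rule, at least 1.5-fold lower with fenoterol in both mice, gave 249 peaks, and 732 peaks moved at least 1.5-fold in opposite ways. The change was larger in mouse 1 at 494 of the 694 peaks (71.2%), with a median log2 change of 0.902 in mouse 1 and 0.728 in mouse 2. A 2-fold threshold in each mouse was reached by 40 of them. Limma-trend over all tested peaks, with an adjusted p under 0.05 as the threshold, called 4 peaks higher with fenoterol than without (0.00599% of those tested), and these 4 are among the 694. By voom on recovered reads it was 43 peaks (0.0644%), 31 of them among the 694. Both counts come from the contrast that chose the peaks, so nothing is read from them.

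**Figure D1:**
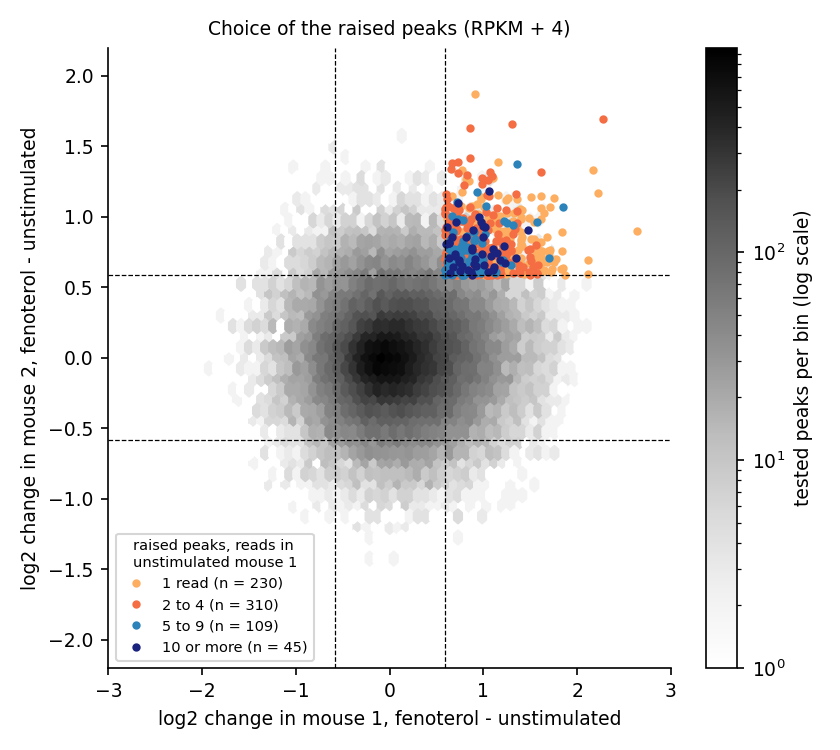
Log2 change with fenoterol against unstimulated cells in mouse 1 (x axis) and mouse 2 (y axis), of deposited RPKM + 4, for the 66772 tested peaks (grey bins, log colour scale) and the 694 raised peaks (points, coloured by reads in the unstimulated library of mouse 1). Dashed lines mark the threshold of 0.585, and the 45 raised peaks with 10 or more reads in the shallow library have median changes of 0.89 and 0.73, against 1.15 and 0.77 for the 230 with 1 read.

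Most raised peaks were weak. Levels are given from here on in RPKM scaled by median-ratio size factors. The median over the 694 peaks was 6.42 and 8.61 RPKM in unstimulated cells of mouse 1 and mouse 2, and 15.3 and 17.6 RPKM with fenoterol. It was 12.9 and 13.0 RPKM with LPS, and 14.1 and 13.9 RPKM with fenoterol and then LPS. All tested peaks had medians between 18.8 and 19.6 RPKM in the 8 libraries. Only 107 of the 694 (15.4%) had a mean over the 8 libraries above the median of tested peaks, 18.6 RPKM, and 25 exceeded 30 RPKM. With LPS, with or without fenoterol, the raised peaks therefore stood between their unstimulated and their fenoterol levels, which are the 2 levels that the rule pushed apart.

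**Figure D2:**
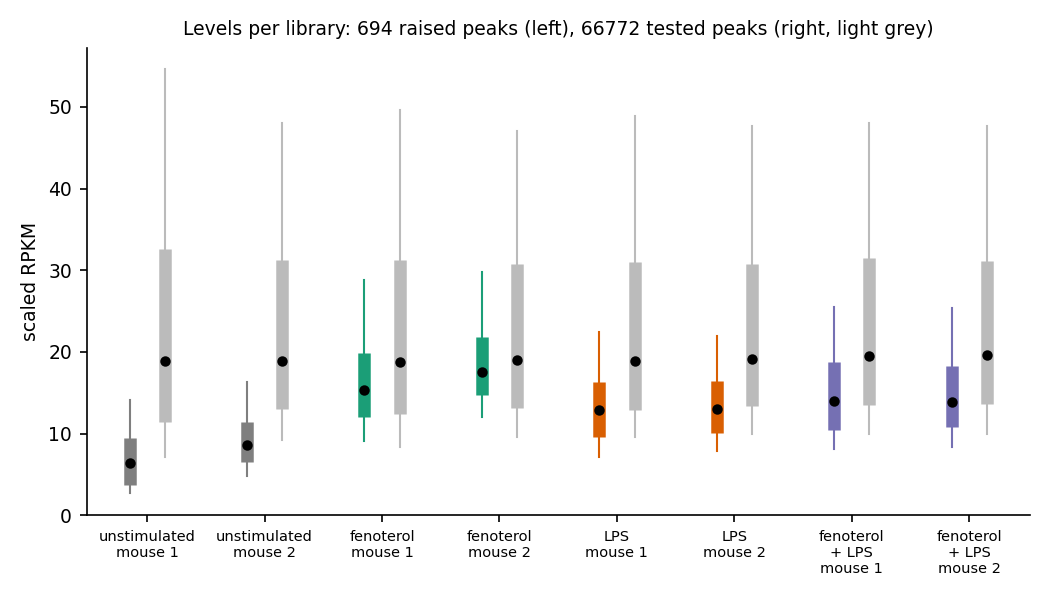
Scaled RPKM in each library for the 694 raised peaks (left of each pair, dark grey or coloured by treatment) and the 66772 tested peaks (right, light grey), with medians as dots, quartiles as thick bars and the 10th to 90th percentile as thin lines. The raised peaks have medians of 6.42 and 8.61 RPKM unstimulated, 15.3 and 17.6 RPKM with fenoterol, and 12.9 to 14.1 RPKM in the 4 libraries with LPS.

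The 12 peaks with the largest change in the mouse that changed less were all weak in unstimulated cells. The first of them, peak42737 on chromosome 2 at 167519845 to 167520084, had 6.29 and 4.05 RPKM unstimulated in mouse 1 and mouse 2, and 43.6 and 21.6 RPKM with fenoterol. With LPS it had 15.5 and 14.8 RPKM, and with both agents 17.0 and 16.4 RPKM. The 4 libraries with LPS lay between the other groups without overlap. At peak38947 on chromosome 2 (57084702 to 57085135), levels were 8.68 and 7.82 RPKM unstimulated, 27.0 and 26.3 with fenoterol, 10.5 and 10.1 with LPS, and 5.88 and 9.08 with both. At peak54050 on chromosome 5 (103069688 to 103069945) they were 8.77 and 6.59, 33.2 and 22.1, 7.76 and 10.6, and 8.91 and 3.28 RPKM in the same order. In these last 2 regions the fenoterol libraries stood apart from the other 6, and cells given both agents overlapped with unstimulated ones. For peak16058 on chromosome 12 (86818818 to 86819120) the order gave 7.46 and 9.61, 23.0 and 38.5, 9.43 and 3.61, and 3.37 and 13.0 RPKM, with the mice far apart in both groups with LPS. By contrast, peak19984 on chromosome 13 (97822738 to 97822937) had 3.78 and 6.08 RPKM unstimulated, 12.7 and 18.2 with fenoterol, 17.2 and 10.97 with LPS, and 14.1 and 18.3 with both, so all 6 treated libraries were higher. Of the 12, 7 stood at 1 read in the shallow library (peak665, peak7425, peak19984, peak29051, peak31902, peak43646 and peak50575), and the other 5 held 2 to 5 reads there.

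Signal was strongest at the 5 raised peaks with the highest mean, of which peak36952 is described with its neighbours on chromosome 19. These and the 3 other peaks called by limma-trend beside peak42737 held 8 to 38 reads in the shallow library, so their unstimulated levels carry less counting error. The highest mean belonged to peak53865 on chromosome 5 at 98462010 to 98462480. It had 60.8 and 50.4 RPKM unstimulated, 107.5 and 88.6 with fenoterol, 61.2 and 53.4 with LPS, and 63.9 and 59.7 with both. The 2 fenoterol libraries were the highest, and the other 6 overlapped. The same shape was found at peak54196 on chromosome 5 (106147045 to 106147777), 1 of the 4 called by limma-trend, with 28.7 and 36.4 RPKM unstimulated, 81.6 and 71.0 with fenoterol, 35.8 and 31.3 with LPS, and 35.4 and 31.4 with both. At peak62521 on chromosome 7 (97187866 to 97188483) levels were 45.1 and 42.4, 68.1 and 65.8, 47.1 and 45.1, and 48.2 and 51.0 RPKM in that order. These 3 regions were high after 15 min of fenoterol and nearer to the unstimulated than to the fenoterol level in every library with LPS.

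Other strong members were also high with LPS. Peak14494 on chromosome 12 (17513779 to 17514389) had 23.4 and 23.4 RPKM unstimulated, 47.6 and 45.4 with fenoterol, 42.96 and 44.7 with LPS, and 49.2 and 47.8 with both. Peak33855 on chromosome 18 (56893474 to 56893894) had 14.3 and 21.3 RPKM unstimulated, 58.7 and 48.6 with fenoterol, 39.3 and 40.9 with LPS, and 44.2 and 40.1 with both. In both regions the 6 treated libraries lay above the unstimulated ones without overlap. At peak33584 on chromosome 18 (46607152 to 46607741) the levels were 37.0 and 36.6, 66.5 and 57.5, 51.3 and 56.0, and 61.3 and 60.5 RPKM. Peak9752 on chromosome 11 (6595147 to 6595783) went furthest with LPS, with 24.8 and 24.0 RPKM unstimulated, 43.7 and 46.4 with fenoterol, 62.7 and 60.9 with LPS, and 67.2 and 68.0 with both. All 4 libraries with LPS exceeded both fenoterol libraries there.

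**Figure D3:**
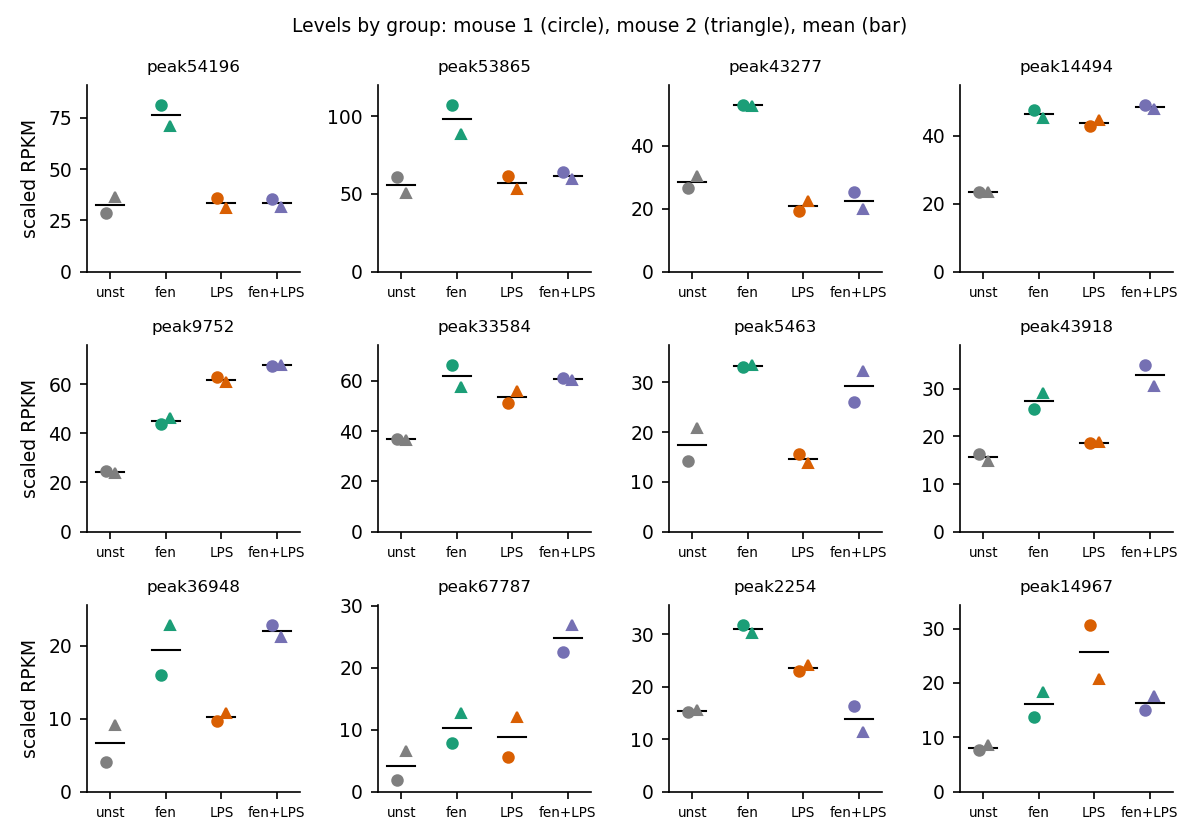
Scaled RPKM (y axis, from 0) at 12 raised peaks in unstimulated cells (unst), with fenoterol (fen), with LPS and with both (fen+LPS), for mouse 1 (circles), mouse 2 (triangles) and their mean (bars). Peak54196, peak53865 and peak43277 are high with fenoterol alone, and peak14494, peak9752 and peak33584 are also high with LPS. Peak5463, peak43918, peak36948 and peak67787 are higher with both agents than with LPS, and peak2254 and peak14967 are lower.

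These shapes were counted over all 694 peaks. Both fenoterol libraries exceeded the other 6 at 253 peaks (36.5%; 5.23% of all tested peaks). All 6 treated libraries exceeded both unstimulated ones at 364 (52.4%; 5.03% of all tested), and 72 peaks had both features. At 56 peaks (8.07%; 18.3% of all tested) the 4 libraries with LPS exceeded both fenoterol libraries. LPS alone gave a higher level than no stimulation in both mice at 505 peaks (72.8%, against 29.7% of all tested) and a lower one at 45 (6.48%, against 33.7%). The excess reached 1.5-fold in each mouse at 170 (24.5%, against 6.49%). Cells given both agents exceeded unstimulated cells in both mice at 540 peaks (77.8%, against 32.0%), and by 1.5-fold at 234 (33.7%, against 8.95%). Compared with fenoterol alone, cells given both agents were lower in both mice at 369 peaks (53.2%, against 37.1%) and higher at 139 (20%, against 32.6%). A fall of at least 1.5-fold in both mice between these groups was seen at 87 (12.5%, against 3.30%). Each of these counts uses libraries that chose the peaks for low unstimulated and high fenoterol values. They describe the peaks and were not tested.

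Among the 45 raised peaks with 10 or more reads in the shallow library, both fenoterol libraries exceeded the other 6 at 35 (77.8%, against 4.54% of all tested peaks with that many reads). Among the 230 peaks with 1 read there, this held at 41 (17.8%, against 5.17%). All 6 treated libraries exceeded the unstimulated ones at 16 of the 45 (35.6%, against 2.44% of all tested peaks with that many reads) and at 142 of the 230 (61.7%, against 20%). Median group levels of the 45 were 21.3 RPKM in unstimulated cells, 40.4 RPKM after fenoterol, 25.1 RPKM after LPS and 25.8 RPKM after both agents. For the 230 they were 5.25, 13.7, 12.1 and 13.5 RPKM. The split uses the library that helped to choose the peaks and that these counts compare against, and a low read number there makes a treated level above it likelier. The shares of all tested peaks rose towards 1 read as well, so nothing is read from the difference between the 45 and the 230.

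Whether fenoterol also mattered at these peaks when LPS followed was asked by comparing the 4 libraries with LPS. They had no part in the 1.5-fold rule, although they enter the filter on the mean. The p-values rest on a spread estimated over all 8 libraries, so the libraries that chose the peaks enter them. In this comparison of fenoterol + LPS with LPS, limma-trend called none of the 694 peaks higher and none lower (0% of all tested peaks in each direction), with a smallest adjusted p of 0.384. At an unadjusted p under 0.05, 52 were higher (7.49%, against 4.24% of all tested) and 9 lower (1.30%, against 2.40%). With only the 4 libraries with LPS in the fit, limma-trend again called 0 raised peaks, with a smallest adjusted p of 0.0511. The median log2 difference was 0.11 over the raised peaks, with 0.111 in mouse 1 and 0.106 in mouse 2, and -0.01 over all tested peaks. Signal was higher with both agents than with LPS in both mice at 277 peaks (39.9%, against 29.0%) and lower in both at 128 (18.4%, against 29.2%). Where each mouse had to differ by 1.5-fold or more, 27 were higher (3.89%, against 1.46%) and 2 lower (0.288%, against 0.415%). The libraries of the groups did not overlap at 197 peaks with both agents on top (28.4%, against 20.7%) and at 85 with LPS on top (12.2%, against 20.9%). The raised peaks were thus more often higher than lower with fenoterol before LPS, by a small amount. Voom on recovered reads called 4 of them higher (0.576%, against 0.583% of all tested) and 1 lower (0.144%, against 0.0509%), so its share of higher calls was that of all peaks.

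**Figure D4:**
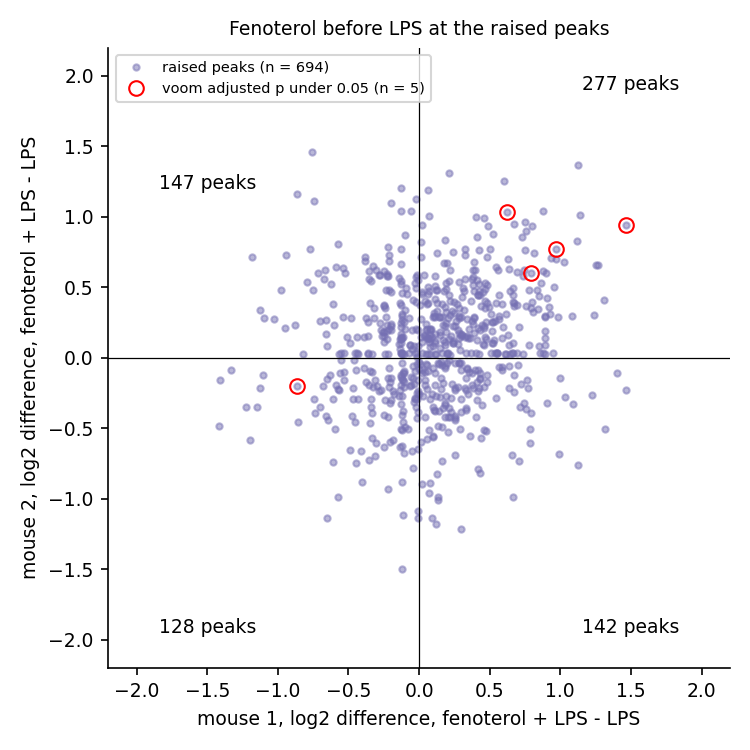
Log2 difference between fenoterol + LPS and LPS (scaled RPKM + 4) in mouse 1 (x axis) and mouse 2 (y axis) at the 694 raised peaks, with the 5 called by voom circled in red. The number of peaks in each quadrant is printed, and 277 peaks are higher in both mice against 128 lower in both.

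The 249 peaks of the mirrored rule give a measure of this tilt at peaks chosen the opposite way. They were higher with both agents than with LPS in both mice at 88 (35.3%, against 29.0% of all tested peaks). They were lower at 57 (22.9%, against 29.2%), with a median log2 difference of 0.0113. At an unadjusted p under 0.05 by limma-trend, 16 were higher (6.43%) and 4 lower (1.61%). These shares were near the 7.49% and 1.30% of the raised peaks. A difference of 1.5-fold or more upward in each mouse was reached by 11 of them (4.42%), a share no smaller than the 3.89% of the raised peaks. Downward it was reached by 3 (1.2%), against 0.288% of the raised peaks. Among all tested peaks the shares were 1.46% upward and 0.415% downward. The shares of the raised and the mirrored peaks were not tested against each other. The tilt also varied with coverage. Among the 230 raised peaks with 1 read in the shallow library, 87 (37.8%) were higher in both mice, and among all 2127 tested peaks with 1 read there, 42.0% were. With 2 to 4 reads the shares were 40% of 310 raised peaks and 36.1% of all, and with 5 to 9 reads 40.4% of 109 and 32.0%. With 10 or more reads, 22 of 45 raised peaks (48.9%) were higher in both mice, against 24.3% of the 34943 tested peaks with that many reads. The median log2 difference of the 45 was 0.10, against -0.03. The share was thus below that of all tested peaks of the class where the shallow library had 1 read, and above it where that library had 10 or more. The class of 10 or more reads has no upper bound, and its raised peaks were weaker than its tested peaks. Their median unstimulated level was 21.3 RPKM, against 30.7 RPKM. These splits were not tested.

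**Figure D5:**
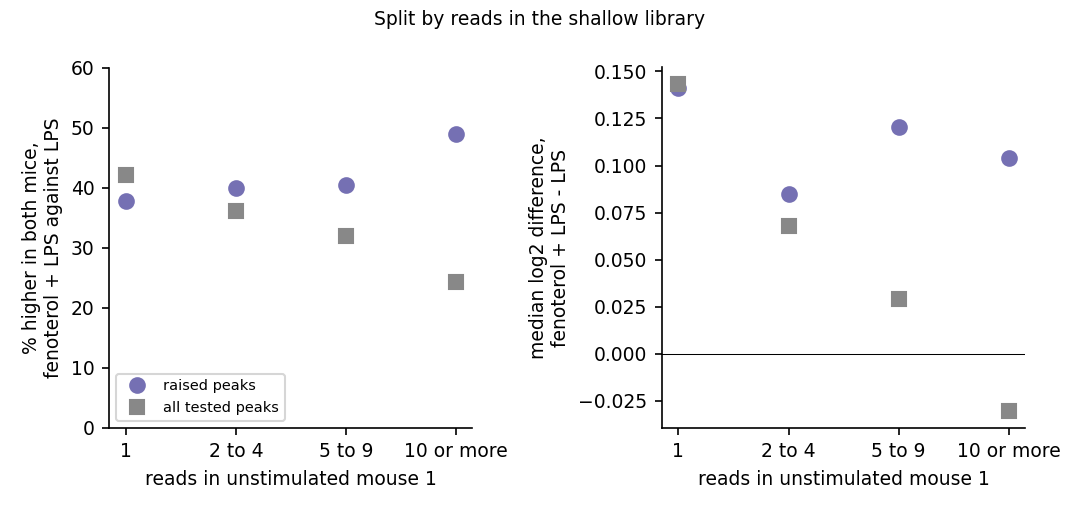
Share of peaks higher with fenoterol + LPS than with LPS in both mice (left, in percent) and median log2 difference between these groups (right), for raised peaks (circles) and all tested peaks (squares), split by reads in the unstimulated library of mouse 1. The circles and squares lie close together at 1 read, at 37.8% and 42.0%, and apart at 10 or more reads, at 48.9% and 24.3%.

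A split by the level with LPS, the mean of the 4 libraries with LPS, gave the same direction in each band. Between 10 and 15 RPKM, where 359 of the raised peaks lay, 35.7% were higher in each mouse, where 29.7% of the band's tested peaks were. Between 15 and 20 RPKM it was 66 of 128 (51.6%, against 31.9%), and between 20 and 30 RPKM 34 of 74 (45.9%, against 32.4%). At 30 RPKM or more it was 17 of 28 (60.7%, against 24.3%), and below 10 RPKM 32 of 105 (30.5%, against 24.9%). The bands do not equalize reads in the shallow library, where 33.1% of the raised and 3.19% of all tested peaks stood at 1 read. This split was not tested either.

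Of the members higher with both agents, peak5463 on chromosome 10 at 7933685 to 7934163 had the smallest p. It stood at 14.2 and 20.8 RPKM unstimulated in mouse 1 and mouse 2, 33.0 and 33.5 with fenoterol, 15.5 and 13.7 with LPS, and 26.1 and 32.3 with both. The 4 libraries with fenoterol were thus above the 4 without it. Its log2 difference between both agents and LPS was 0.83 (SE 0.20, unadjusted p = 0.00037, adjusted p = 0.384 by limma-trend; adjusted p = 0.0183 by voom). Peak43918 on chromosome 3 (41088683 to 41089234) had 16.4 and 14.9 RPKM unstimulated, 25.8 and 29.1 with fenoterol, 18.6 and 18.8 with LPS, and 35.1 and 30.6 with both, again without overlap by fenoterol (log2 difference 0.69, SE 0.18, adjusted p = 0.419; 0.0183 by voom). At peak1059 on chromosome 1 (58361192 to 58361625), the levels were 13.9 and 15.6, 27.7 and 32.2, 16.4 and 10.1, and 24.1 and 24.0 RPKM in that order, and neither test called it (adjusted p = 0.469, and 0.0904 by voom). These 3 regions were high in both fenoterol groups and low in both others. The rule asked for fenoterol above unstimulated, and this list for both agents above LPS, so the shape was largely chosen.

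The remaining regions of this list differed more in shape. Peak67787 on chromosome 8 (119930439 to 119930845) was highest with both agents, at 22.6 and 27.0 RPKM, with 5.61 and 12.1 under LPS, 7.78 and 12.7 with fenoterol, and 1.85 (1 read) and 6.56 unstimulated (log2 difference 1.2, SE 0.37, adjusted p = 0.488; 0.00668 by voom). Peak20540 on chromosome 13 (110609351 to 110609599) had 42.1 and 22.6 RPKM with both agents, 17.2 and 11 with LPS, 12.7 and 16.7 with fenoterol, and 6.06 and 8.78 unstimulated. Peak5381 on chromosome 10 (5861213 to 5861412) had 14.1 and 16.9 RPKM with both, 4.29 and 4.11 with LPS, 19.1 and 11.7 with fenoterol, and 7.55 and 6.08 unstimulated. Its levels with LPS stood for 3 and 3 reads, and those unstimulated for 2 and 5. Neither test called peak20540 (adjusted p = 0.465 by limma-trend, 0.0798 by voom) or peak5381 (adjusted p = 0.437 by limma-trend, 0.134 by voom). The voom calls depended on single libraries. For peak5463 the call was lost on leaving out any 1 of the 4 libraries with LPS (adjusted p = 0.0535 to 0.415), while its voom log2 difference was 0.84 to 1.15, against 0.98 with all libraries. These refits leave 1 group with a single library, which is assumed to vary like the others. Voom called 0 of the 694 higher when either LPS library was left out, and for fenoterol + LPS it called 1 with mouse 2 alone and 4 with mouse 1 alone.

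In the opposite direction, peak2254 on chromosome 1 at 107861186 to 107861434 had the smallest p. It had 15.2 and 15.6 RPKM unstimulated, 31.8 and 30.2 with fenoterol, 23.0 and 24.2 with LPS, and 16.4 and 11.3 with both, so fenoterol was on the high side without LPS and on the low side with it (log2 difference -0.64, SE 0.20, adjusted p = 0.513 by limma-trend; 0.438 by voom). Peak14967 on chromosome 12 (40925906 to 40927074), the 1 member called lower by voom (adjusted p = 0.022), had 7.72 and 8.49 RPKM unstimulated, 13.8 and 18.4 with fenoterol, 30.7 and 20.8 with LPS, and 15.0 and 17.5 with both. LPS alone gave its highest levels, and cells given both agents lay within the range of those given fenoterol. This call was kept without the LPS library of mouse 2 (adjusted p = 0.0174) and lost without any 1 of the other 3 libraries with LPS (0.0552 to 0.70).

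Raised peaks were narrower than most. Their median width was 297 bp, against 422 bp for all tested peaks, and 83 of them (11.96%, against 3.45%) had the minimum width of 200 bp, while 2 (0.288%, against 4.82%) reached 1000 bp. In the band of 10 to 15 RPKM with LPS, medians were 275 bp for the raised and 341 bp for all tested peaks. A difference in width was thus also present among peaks of like level with LPS. Unstimulated and fenoterol levels, which the rule used, were not matched. At a given RPKM a narrower peak holds fewer reads, so the rule and the width are not independent. They lay on each of the 21 chromosomes, with 9 of 1529 tested peaks on chromosome X (0.589%) and 32 of 2232 on chromosome 18 (1.43%) as the lowest and highest shares, leaving out chromosome Y with 1 of 32.

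Raised peaks had neighbours about as often as other peaks. A tested peak lay within 10 kb of 475 of them (68.4%, against 69.6% of all tested peaks), and this nearest peak was also a raised one in 17 cases (3.58%, against 1.01% for all tested peaks with a neighbour so close). The nearest peak was higher with fenoterol in both mice in 33.3% of cases, against 23.1%, and its median log2 change was 0.05, against -0.03. These neighbours were measured in the libraries that chose the peaks, so the shares are a description. In all, 25 raised peaks formed 12 runs with gaps of at most 10 kb.

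The densest group lay on chromosome 19, where 5 of the 8 tested peaks within 50 kb were raised ones, spanning 48.4 kb. No other window of 50 kb that starts at a raised peak outside this group held more than 3. The first region, at 53590703 to 53591069, had 4.11 and 9.91 RPKM unstimulated, 12.1 and 17.7 with fenoterol, 20.2 and 17.1 with LPS, and 27.8 and 25.3 with both. Peak36947, at 53609953 to 53610294, had 13.2 and 9.93, 24.1 and 20.5, 25.9 and 21.6, and 29.1 and 24.7 RPKM in the same order. In both regions all 6 treated libraries were above the unstimulated ones, and those given both agents came highest on average. Peak36948, at 53618029 to 53618585, had 4.05 and 9.14 RPKM unstimulated, 15.9 and 22.8 with fenoterol, 9.73 and 10.8 with LPS, and 22.9 and 21.2 with both. The 4 fenoterol libraries exceeded the other 4 here, and voom called the difference between both agents and LPS (log2 0.87, SE 0.29, adjusted p = 0.548 by limma-trend; 0.017 by voom).

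Its neighbour peak36949, at 53622054 to 53622361, had 9.79 and 13.4, 18.5 and 30.3, 11.1 and 18.7, and 24.0 and 20.1 RPKM. The fifth, peak36952 at 53638615 to 53639120, was 1 of the 5 strongest raised peaks, with 41.7 and 42.6 RPKM unstimulated, 69.4 and 68.6 with fenoterol, 49.6 and 45.9 with LPS, and 48.4 and 48.9 with both. Signal there was highest with fenoterol alone, unlike at the first 2. A broad peak between the members, at 53603228 to 53604388, kept 51.6 to 63.4 RPKM in all 8 libraries. Just beyond the group, the region at 53640303 to 53641082 had 34.7 and 34.5 RPKM unstimulated, 41.0 and 46.1 with fenoterol, 54.5 and 49.0 with LPS, and 64.3 and 67.0 with both, and was no member. Raised peaks within 50 kb of each other thus did not share 1 course over the treatments.

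A pair of neighbours on chromosome 3 was high with fenoterol alone. Peak43277 (9033721 to 9034257) had 26.6 and 30.2 RPKM unstimulated, 53.0 and 52.6 with fenoterol, 19.1 and 22.4 with LPS, and 25.1 and 19.9 with both. Peak43278 (9034461 to 9034816) had 19.1 and 22.5, 46.3 and 38.6, 13.6 and 9.99, and 12.2 and 18.2 RPKM. In both, the 4 libraries with LPS lay below the unstimulated ones. A pair on chromosome 18 instead had intermediate levels with both agents: peak34879 (82994815 to 82995359) had 33.1 and 32.5 RPKM unstimulated, 66.2 and 53.2 with fenoterol, 33.5 and 26.6 with LPS, and 47.2 and 38.2 with both. Next to it, peak34880 (82995439 to 82995954) had 24.8 and 27.2, 53.4 and 47.2, 23.2 and 27.0, and 37.0 and 32.1 RPKM. In each pair the 2 neighbours shared 1 shape. Peaks so close can share fragments and are not independent.

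At the threshold itself there was no gap. The 3 members just inside, peak58883 on chromosome 6, peak43370 on chromosome 3 and peak12663 on chromosome 11, had a change of 0.5854 to 0.5856 on the log2 scale in the mouse that changed less. The 3 peaks just outside, peak9576 on chromosome 11, peak71272 on chromosome 9 and peak53136 on chromosome 5, had 0.5847 to 0.5848. Their levels were alike as well: peak58883 had 6.85 and 9.37 RPKM unstimulated and 17.3 and 15.9 with fenoterol, and peak9576 had 5.99 and 12.5 RPKM and then 17.6 and 20.6.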

How the data were processed

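The authors deposited 1 table with an RPKM value per peak and library for 74207 peaks, 1 peak set shared by 8 ATAC-seq libraries. The submitters' processing notes name cutadapt, Bowtie2, MACS2 and HOMER, with build mm9. Versions, duplicate removal, a shift for the Tn5 cut, and whether libraries were pooled to call peaks: not given in the sources used here. All values (100%), times peak length, came within 0.01 of a whole multiple of 1 step per library, so reads per peak were recovered. Peaks without reads appear at 1 read.

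The members and lists were chosen with earlier results of these data known. Median-ratio size factors (0.9401 to 1.037) scaled the RPKM. The log2 of scaled RPKM + 4 was fitted with limma-trend (limma 3.58.1, R 4.3.3) as 4 group means over 8 libraries, with Benjamini-Hochberg adjustment over 66772 peaks whose mean exceeded 9.71 RPKM. Fold changes are on this scale and understate the change of low peaks. The p-values rest on 2 mice per group. Per the labels, a mouse number marks 1 animal across the groups, and differences between the mice correlated at 0.023 to 0.0725 between groups. Voom on recovered reads was an alternative. Both tests were also run on simulated data with a spread set from well-covered peaks. The outcome is not given here, and nothing about the weak peaks is read from it. Other alternatives changed the scaling, the pseudocount, the filter, the libraries in the fit, the block by mouse and the rule.

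Regions eligible to be named were the 12 with the largest change in the mouse that changed less, those called for fenoterol, the 6 with the smallest p in each direction for fenoterol + LPS against LPS, the 5 with the highest mean, the 3 on each side of the threshold and the tightest runs. The chromosome 19 neighbourhood, the members called by voom, the splits by reads and level, and the examples taken from these lists were chosen after their values were seen. Genes and sequences at the peaks are not analysed here, since the reference tables used are on another build. Coordinates are as deposited, on mm9.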

Additional observations from a re-analysis of the deposited data

Results flagged for a closer look

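Among the regions named above or belonging to the same lists, 9 raised peaks were higher with fenoterol than unstimulated in both mice, by their choice, and lower with fenoterol + LPS than with LPS in both mice. Over all 694 raised peaks, 128 (18.4%) were lower in both mice in this second comparison, against 29.2% of all tested peaks. A lower level in both mice in the second comparison was thus rarer here than among all tested peaks. The share of all tested peaks sets no condition on the first comparison, fenoterol against unstimulated. The difference between these 2 effects of fenoterol was not tested, because the first of them chose the peaks. The log2 difference between fenoterol + LPS and LPS was -0.64 at peak2254 on chromosome 1, -0.79 at peak5600 on chromosome 10 (12448886 to 12449085) and -0.54 at peak14967 on chromosome 12. It was -0.89 at peak24170 on chromosome 15 (23520593 to 23520792), -0.81 at peak38272 on chromosome 2 (30982812 to 30983164) and -0.33 at peak38947 on chromosome 2. It was -0.95 at peak47214 on chromosome 3 (151043999 to 151044232), -0.53 at peak50575 on chromosome 4 (129948097 to 129948296) and -0.66 at peak50894 on chromosome 4 (134938302 to 134938502). Limma-trend gave an adjusted p of 0.609 for peak47214 and 0.65 for peak24170. Reads were few at several of these peaks. With both agents, mouse 1 and mouse 2 held 3 and 7 reads at peak5600, 6 and 2 at peak24170, and 4 and 6 at peak47214. The wide peak14967 held 69 and 73. At peak47214 the levels were 18.3 and 11.7 RPKM with LPS and 4.37 and 7.23 RPKM with both agents, beside 13.6 and 16.6 RPKM with fenoterol alone. At 6 of the 9 the lists themselves asked for a negative difference. Several of these values leaned on 1 library. Without the fenoterol + LPS library of mouse 2 the difference was -0.40 at peak38272 and -0.50 at peak24170. Without that of mouse 1 it was -0.38 at peak5600, and without the LPS library of mouse 1 it was -0.29 at peak14967. At peak38947 mouse 1 gave -0.56 and mouse 2 gave -0.11.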

How the results depend on the processing

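The number of raised peaks depended on the rule's settings. It was 591 on values scaled by size factors, all of them among the 694, and 40 with a 2-fold threshold. With a pseudocount of 0.8 it was 1423 and with 20 it was 19. With 1 mouse alone it was 3002 (mouse 2) to 8978 (mouse 1, with the shallow library). For fenoterol + LPS against LPS, limma-trend called 0 members in either direction under each planned setting that kept both mice in every group fitted. The smallest adjusted p of a member depended on the setting. By limma-trend it was 0.384 in the main fit, 0.543 without the mean trend and 0.0511 with only the 4 libraries with LPS. Voom called 4 higher and 1 lower, and with the mouse as a replicate block 5 higher and 1 lower. Without 1 library with LPS, voom called 0 to 4 higher and 0 to 1 lower. The replicate block, with numbers that pair libraries of 1 animal, changed no other call. By limma-trend, some alternatives cannot move the median log2 difference of the members, which stayed at 0.108. These dropped the filter or the mean trend, added the replicate block, or left out unstimulated or fenoterol libraries. In the other alternatives the median stayed above 0. It was 0.112 on values as deposited, 0.0931 after quantile normalization, 0.129 and 0.0596 with pseudocounts of 0.8 and 20, 0.144 by voom, 0.143 by voom with the replicate block, 0.1605 for the 40 2-fold peaks, and 0.0893 to 0.1161 by limma-trend without 1 library. By voom it was 0.112 and 0.1377 without the LPS library of mouse 1 and mouse 2, and 0.1607 and 0.1448 without their fenoterol + LPS libraries. With the lowest 25% of peaks left out, 371 members were tested. No fit changed the direction at the 14 members named for this comparison. They were named for a small p or a voom call in the same comparison, so a kept direction was likely beforehand. Several of the fits by limma-trend cannot change their difference, such as those without an unstimulated or a fenoterol library. Fits by voom without 1 library with LPS were chosen after seeing the data. The planned count of motifs was not run. Depth limits most of all the 230 members at 1 read in the shallow library.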
